A study of Mus musculus with 8 samples.

Results

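Matrix metalloproteinases (Mmp) and the tissue inhibitors of metalloproteinases (Timp) were followed in 8 mouse hearts on gene expression arrays, from mice with and without floxed alleles of Igf1r, the receptor for insulin-like growth factor 1. The 9 members, Mmp2, Mmp3, Mmp9, Mmp14, Mmp15, Timp1, Timp2, Timp3 and Timp4, were taken by name, as every probe whose transcript identifier maps to one of these symbols. They had 10 of the 39429 probes of the array, 2 of them for Timp2, and made up 9 of the 19983 symbols that could be named. All 10 probes passed the filter on dim signal, for which 4 or more of the 8 arrays had to be well above background.

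The double-transgenic (dtg) group held 4 hearts of male C57BL6 mice of genotype merCremer/+ IGFloxP/IGFloxP, which carry a tamoxifen-activated Cre recombinase and floxed Igf1r alleles. The control group held 4 hearts of male C57BL6 mice that carried Cre but no floxed Igf1r. Per the labels' protocols, 4OH-Tamoxifen was given to both groups alike at 8 months of age (500 µg on each of 10 days), in order to excise exon 3 of the receptor gene, with the hearts collected 6 weeks after that. The labels do not name the promoter that drives merCremer. RNA came from heart tissue with all its cell types, so fewer cells of a type and less RNA per cell cannot be told apart. Whether samples are separate animals is not stated in the labels, and p-values therefore reflect the scatter of these 8 samples, part of which may be technical.

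Metalloproteinases are zinc-dependent enzymes that cleave collagens, proteoglycans and other matrix proteins, and most are made as inactive proenzymes. Timp proteins bind the active enzymes and block them, and some also bind proenzymes. In the heart the balance of both families is known for its part in matrix turnover, in the stiffness of the ventricle and in remodelling after injury.

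The promoters of 4 members are shown because they differ in the letters on which the regulation of these families is known to rest. They run from 250 bases before to 50 bases after the annotated start, 5′ to 3′, from RefSeq (GRCm38.p6). Mmp3 (chr9:7445572-7445871, plus strand) and Timp1 (chrX:20869916-20870215, plus strand) encode an enzyme and an inhibitor known to respond to AP-1, the dimer of Fos and Jun proteins. Mmp14 (chr14:54431348-54431647, plus strand) and Timp2 (chr11:118355362-118355661, minus strand) encode the membrane-bound activator of proMmp2 and the inhibitor that docks proMmp2 to it. Capitals mark every match, on either strand, to the AP-1 motif TGAGTCA, its variant TGAGTAA, the PEA3 motif AGGAAG of Ets factors, the GC box GGGCGG of Sp1 and the TATA box TATAAA.
Mmp3: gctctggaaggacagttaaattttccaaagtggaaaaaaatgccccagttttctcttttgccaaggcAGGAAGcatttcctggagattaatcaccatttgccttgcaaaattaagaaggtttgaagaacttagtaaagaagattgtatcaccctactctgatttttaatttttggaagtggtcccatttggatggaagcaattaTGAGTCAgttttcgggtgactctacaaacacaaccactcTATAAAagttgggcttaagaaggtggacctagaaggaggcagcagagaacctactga
Timp1: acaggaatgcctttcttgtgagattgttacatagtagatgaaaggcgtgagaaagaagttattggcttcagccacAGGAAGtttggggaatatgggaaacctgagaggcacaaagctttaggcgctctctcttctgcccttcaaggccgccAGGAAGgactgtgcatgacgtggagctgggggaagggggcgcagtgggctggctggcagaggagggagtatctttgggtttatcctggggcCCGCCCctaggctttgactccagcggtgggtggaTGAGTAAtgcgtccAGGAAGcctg
Mmp14: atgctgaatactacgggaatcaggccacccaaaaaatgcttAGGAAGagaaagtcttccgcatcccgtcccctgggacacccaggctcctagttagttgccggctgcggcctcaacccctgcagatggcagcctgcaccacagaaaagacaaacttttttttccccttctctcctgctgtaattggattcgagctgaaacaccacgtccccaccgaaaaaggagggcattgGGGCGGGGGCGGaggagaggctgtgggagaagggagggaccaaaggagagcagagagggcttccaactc
Timp2: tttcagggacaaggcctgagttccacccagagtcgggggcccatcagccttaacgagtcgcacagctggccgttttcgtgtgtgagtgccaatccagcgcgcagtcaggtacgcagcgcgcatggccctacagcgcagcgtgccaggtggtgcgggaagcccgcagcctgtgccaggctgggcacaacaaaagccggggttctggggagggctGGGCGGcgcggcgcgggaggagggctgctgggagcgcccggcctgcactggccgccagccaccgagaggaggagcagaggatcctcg

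Of these letters, Mmp3 held the AP-1 motif, first base 46 bases before the annotated start, together with a TATA box and 1 PEA3 motif. AP-1 letters occurred in 5.20% of 32851 promoters of the same length, and the TATA box in 13.6%. Timp1 held the variant motif, which occurred in 2.68% of the promoters, with 3 PEA3 motifs and 1 GC box. Mmp14 held 2 adjoining GC boxes and Timp2 held 1, letters found in 35.7% of the promoters. The PEA3 letters occurred in 35.4%. GC made up 40% of the Mmp3 window, 55% of Timp1, 56% of Mmp14 and 68.7% of Timp2, against a median of 52.7% over all promoters. Windows of Mmp15, Timp3 and Timp4 held neither AP-1 form, and those of Mmp2 and Mmp9 were not analysed here. A match is a description of the letters and not a site.

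Signal is given as log2 processed signal minus the 75th percentile of the array. It depends on the probe, so levels are compared between hearts and never between genes. Between 59.1% and 71.4% of probes lay well above background per array, no spot was saturated, and the 8 arrays lay on 2 slides with 2 hearts of each group on each. Slide 1 held dtg 1, dtg 4, control 1 and control 2, and slide 2 held dtg 2, dtg 3, control 3 and control 4. Pearson's r across genes (which are not independent) was 0.973 to 0.988 for pairs that held dtg 3, dtg 4 or control 4 and 0.977 to 0.995 for pairs of the other 5 arrays, so differences are also given without these 3. Markers bore out the tissue: all 8 cardiomyocyte markers were measured, and their summed signal (each marker relative to the 75th percentile, then added) lay between 2379 and 2666 in dtg and between 2441 and 2626 in control hearts. Of 6 genes listed for lung and skeletal muscle, Sftpc, Myh4 and Actn3 failed the filter. Scgb1a1 (7 of 8 arrays), Tnni2 and Ckm (8 of 8 each) passed it, so the list gives no verdict on other tissue. Atrial markers varied widely, with sums of 72.4 to 525.9 in dtg and 61.7 to 683.4 in control hearts, and their part in the values below was not tested. Igf1r itself read -0.30, -0.21, 0.17 and 0.40 in dtg hearts 1 to 4, against 0.18, 0.21, 0.38 and 1.04 in control hearts 1 to 4. The groups overlapped, with means of 0.02 ± 0.33 in dtg and 0.45 ± 0.40 in control hearts (SD, n = 4 each). Where its probe lies relative to the excised exon was not analysed here, so this is no check of the genotype.

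No member passed limma's test of dtg against control hearts. The background was the same: of 21412 features tested, 0% passed an adjusted p of 0.05, 0.743% reached an unadjusted p of 0.05 (0.612% higher and 0.131% lower in dtg hearts), and for 0.518% the groups did not overlap. The 0.743% lay below the share of 0.05 that this unadjusted threshold allows when no feature differs. The cause was not tested. Among the 9 members, 0 reached an unadjusted p of 0.05 and in none did the groups stand apart. The smallest unadjusted p of a member was 0.111, for Mmp9 (limma), and the adjusted p was 1 for all 9 (limma, Benjamini-Hochberg over all features). Means were lower in dtg hearts for 6 members and higher for 3, where 44.7% of all features were lower. The median log2 difference of the members was -0.10, beside 0.015 over all features. Dtg 4 was the lowest of all hearts for Mmp2, Mmp3, Mmp9, Mmp15 and Timp1, all among the 6 with lower means. These lower means thus share a heart and are not independent.

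**Figure D1:**
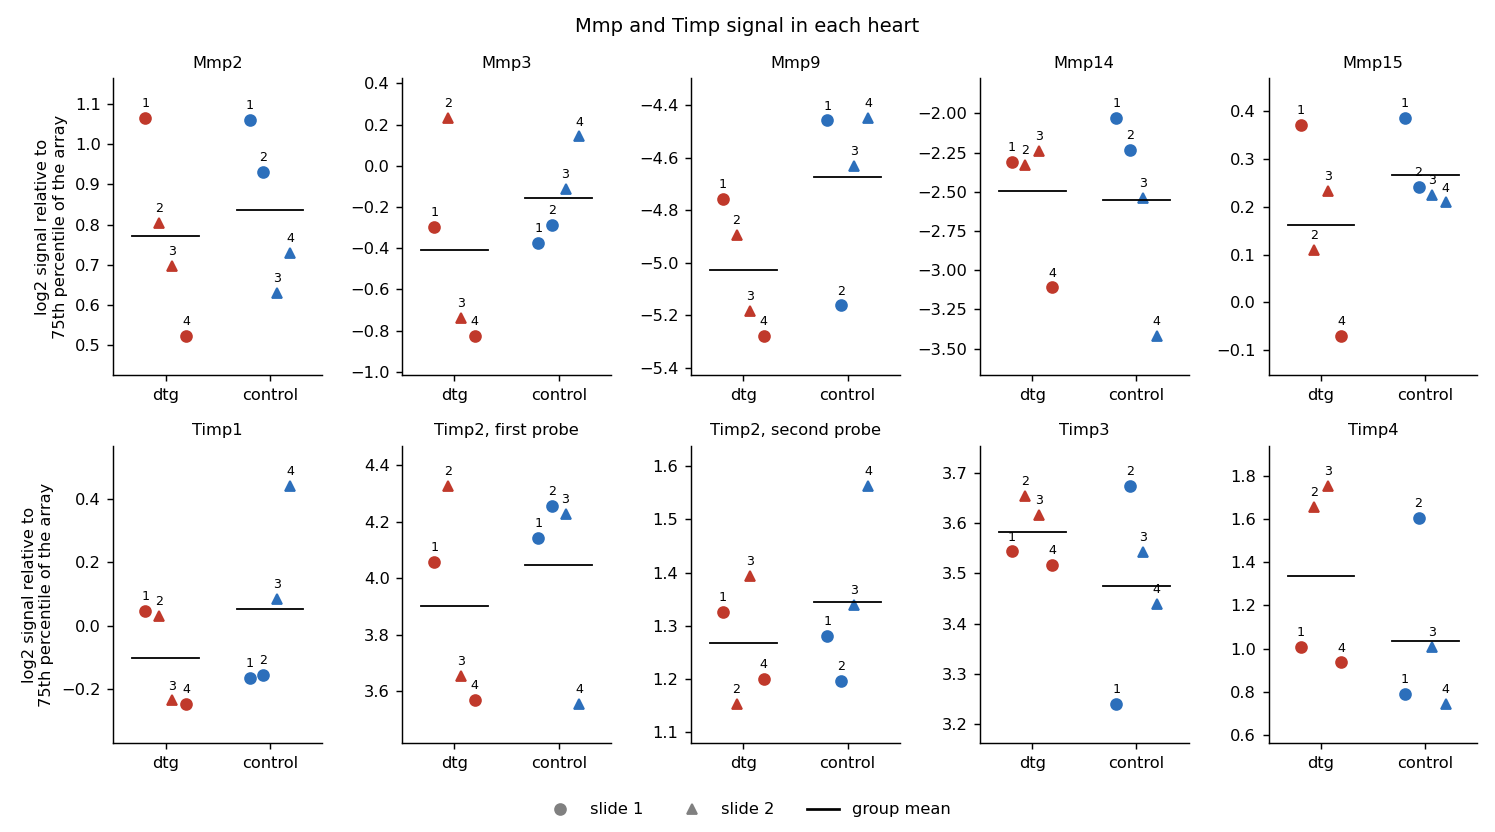
Each point is one heart, numbered by replicate, with its log2 signal minus the 75th percentile of the array on the y axis, dtg left and control right, slide by symbol and the group mean as a line. The ranges of the groups overlap for all 10 probes, and dtg 4 is the lowest of the 8 hearts for Mmp2, Mmp3, Mmp9, Mmp15 and Timp1.

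Among the gelatinases, Mmp2, which degrades denatured and basement membrane collagen and is made constitutively by fibroblasts and other stromal cells, varied little between hearts. Its log2 signal was 1.07, 0.80, 0.70 and 0.52 in dtg hearts 1 to 4, against 1.06, 0.93, 0.63 and 0.73 in control hearts 1 to 4. Groups covered the same range, and dtg 1 and control 1 were almost equal at the top. The mean was 0.77 ± 0.23 in dtg and 0.84 ± 0.19 in control hearts (SD, n = 4 each), a difference of -0.06 (SE 0.15), with a 95% interval from -0.42 to 0.29. The sign depended on the hearts used, with -0.20 within slide 1 and 0.071 within slide 2, 0.0094 without control 1 and 0.019 without dtg 4.

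Mmp9, the gelatinase known from neutrophils and macrophages, was close to the background. It read -4.76, -4.89, -5.18 and -5.28 in dtg hearts 1 to 4, against -4.46, -5.16, -4.63 and -4.45 in control hearts 1 to 4. Control hearts 1, 3 and 4 lay above all dtg hearts, while control 2 lay among them. The difference was -0.35 (SE 0.20; 95% interval -0.81 to 0.10), and it was negative within both slides (-0.21 and -0.50). It was -0.66 with quantile normalization and -0.098 with a normexp background correction that left out dark spots. Without dtg 3, dtg 4 and control 4, with slide as a block, it was -0.081.

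The array carried the Mmp9 probe on 10 spots, which gives a measure of the error between spots within an array. Of 10 spots, 8, 6, 5 and 4 were well above background on dtg arrays 1 to 4. On control arrays 1 to 4 it was 10, 7, 9 and 10, so that dtg 1 had more such spots than control 2. With only 4 of 10, the array of dtg 4 did not count as measured. The difference without dtg 4 was -0.27. The SD of the 10 spots of an array was 0.12 to 0.47 on the log2 scale. The spread between the highest and lowest heart was 0.83. Each heart's value is the mean of its 10 spots, so the SD of single spots cannot be set directly against that spread. Spots of an array share 1 RNA sample and are not replicates of a group. The summed signal of 10 leukocyte markers was 35.1 to 43.7 in dtg hearts and 37.3 to 46.9 in control hearts, with a mean log2 signal of 0.18 to 0.30 in dtg and 0.085 to 0.34 in control hearts. Its part in the Mmp9 values was not tested.

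**Figure D2:**
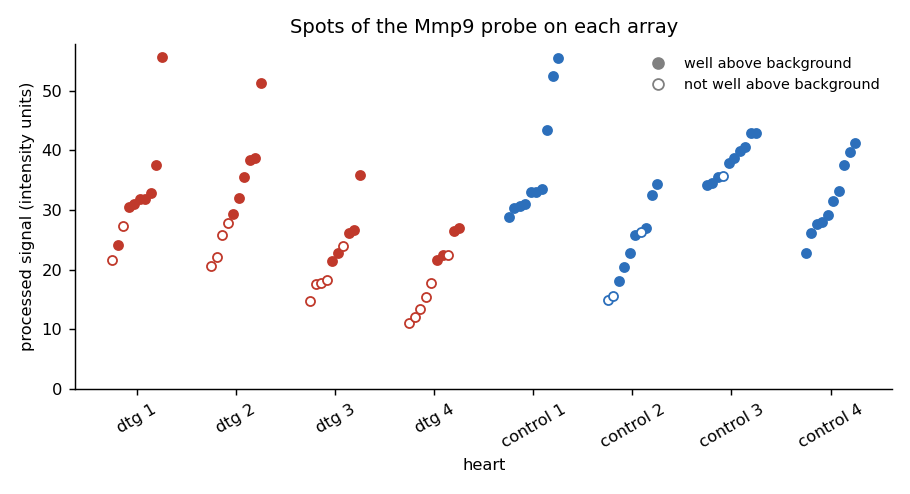
Processed signal in intensity units (y axis, from 0) of the 10 Mmp9 spots on each array, with hearts on the x axis, filled where the spot was well above background and open where it was not. Filled spots number 8, 6, 5 and 4 on dtg arrays 1 to 4, and 10, 7, 9 and 10 on control arrays 1 to 4.

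Mmp3, stromelysin-1, which cleaves proteoglycans and laminin and can activate other proenzymes, differed more between dtg hearts than between groups. The hearts read -0.30, 0.23, -0.74 and -0.83 in dtg hearts 1 to 4, against -0.38, -0.29, -0.11 and 0.14 in control hearts 1 to 4. The highest heart (dtg 2) and both of the lowest (dtg 4 and dtg 3) were dtg hearts, a 2.09-fold span, with all control hearts in between. The difference was -0.25 (SE 0.25; 95% interval -0.82 to 0.32), near -0.23 within slide 1 and -0.27 within slide 2. It was -0.46 without dtg 2, -0.11 without dtg 4 and 0.17 without dtg 3, dtg 4 and control 4 with slide as a block. A share of 21.7% of its variance lay between slides.

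Membrane-type enzymes sit on the cell surface. Mmp14, which cleaves fibrillar collagen and activates proMmp2, had a log2 signal of -2.31, -2.33, -2.24 and -3.11 in dtg hearts 1 to 4, against -2.03, -2.23, -2.54 and -3.42 in control hearts 1 to 4. One heart of each group, dtg 4 and control 4, stood far below the other 6, which lay between -2.54 and -2.03. Its span of 2.62-fold was the widest of the members, and its residual SD was at the 78.8th percentile of all features. The difference was 0.06 (SE 0.33; 95% interval -0.70 to 0.82), from -0.58 within slide 1 to 0.69 within slide 2. It was -0.23 without control 4, 0.26 without dtg 4 and -0.013 with quantile normalization, so that no direction can be given.

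Mmp15, the other membrane-type enzyme among the members, was the steadiest enzyme among them. Log2 signal was 0.37, 0.11, 0.23 and -0.07 in dtg hearts 1 to 4, against 0.39, 0.24, 0.23 and 0.21 in control hearts 1 to 4. Only dtg 2 and dtg 4 lay below all control hearts. The mean was 0.16 ± 0.19 in dtg and 0.27 ± 0.08 in control hearts (SD, n = 4 each), a difference of -0.10 (SE 0.12) whose 95% interval ran from -0.38 to 0.17. It was negative within both slides (-0.16 and -0.045), and -0.027 without dtg 4.

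Timp1 is an inducible inhibitor that binds proMmp9 and inhibits membrane-type enzymes poorly. Its log2 signal was 0.05, 0.03, -0.24 and -0.25 in dtg hearts 1 to 4, against -0.17, -0.16, 0.09 and 0.44 in control hearts 1 to 4. Control 4 stood above the other 7 hearts, and dtg 3 and dtg 4 were the lowest. The difference was -0.15 (SE 0.16; 95% interval -0.53 to 0.23), from 0.061 within slide 1 to -0.37 within slide 2. Without control 4 it was -0.022, and without dtg 3, dtg 4 and control 4, with slide as a block, it was 0.096.

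Timp2 inhibits most metalloproteinases and, at low amounts, joins proMmp2 to Mmp14 for activation. Its 2 probes gave different pictures of the same hearts. The first, brighter probe had a log2 signal of 4.06, 4.33, 3.65 and 3.57 in dtg hearts 1 to 4, against 4.14, 4.26, 4.23 and 3.56 in control hearts 1 to 4. Dtg 3, dtg 4 and control 4 lay below a gap from 3.65 to 4.06 that held no heart. The second probe read 1.33, 1.15, 1.39 and 1.20 in dtg hearts 1 to 4, against 1.28, 1.20, 1.34 and 1.56 in control hearts 1 to 4. Here control 4, lowest by the first probe, was the highest heart, and dtg 2, highest by the first, was the lowest.

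Between the groups the probes had the same sign and neither passed the test. The first gave -0.14 (SE 0.22; 95% interval -0.66 to 0.38), a value of -0.39 within slide 1 and 0.099 within slide 2. The second gave -0.08 (SE 0.12; 95% interval -0.35 to 0.20, adjusted p = 1 over 26095 probes, limma). Without dtg 3, dtg 4 and control 4, with slide as a block, the first gave -0.038 and the second -0.030. Which transcript forms the probes read was not analysed here.

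Timp3, which stays bound to the matrix and also inhibits Adam proteases such as Adam17, varied least of the members when each gene is read by its brightest probe. The probe read 3.54, 3.65, 3.62 and 3.52 in dtg hearts 1 to 4, against 3.24, 3.67, 3.54 and 3.44 in control hearts 1 to 4. The dtg hearts lay within the range of the control hearts, of which control 1 was the lowest. The mean was 3.58 ± 0.06 in dtg and 3.47 ± 0.18 in control hearts (SD, n = 4 each). The difference was 0.11 (SE 0.12; 95% interval -0.16 to 0.38), of which 0.031 was left without control 1. Its residual SD stood at the 15.0th percentile of all features.

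Timp4, the inhibitor with the most restricted tissue pattern and high expression in heart, had the largest difference among the inhibitors. On the log2 scale it read 1.01, 1.65, 1.75 and 0.94 in dtg hearts 1 to 4, against 0.79, 1.61, 1.01 and 0.74 in control hearts 1 to 4. Dtg 2, dtg 3 and control 2 formed a high set from 1.61 to 1.75, and the other 5 reached at most 1.01. The high set had the lowest summed atrial markers, 72.4 in dtg 2, 78.2 in dtg 3 and 61.7 in control 2. In the other 5 hearts that sum was 262.7 or more. The part of atrial content in the Timp4 values and their difference was not tested. The difference of 0.30 (SE 0.26; 95% interval -0.31 to 0.91), a 1.23-fold higher mean in dtg hearts, was -0.23 within slide 1 and 0.83 within slide 2. It was 0.16 without dtg 3, 0.49 without control 2 and 0.17 without dtg 3, dtg 4 and control 4 with slide as a block.

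**Figure D3:**
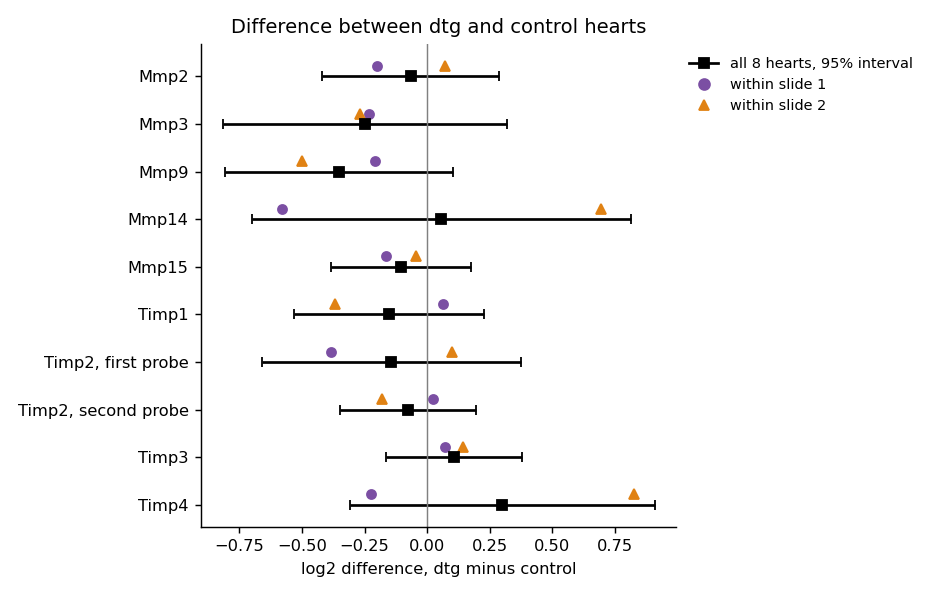
Squares give the log2 difference, dtg minus control, of each probe over all 8 hearts with its 95% interval on the x axis, with circles and triangles for the difference within slide 1 and slide 2. All 10 intervals include 0, and for Mmp2, Mmp14, Timp1, both Timp2 probes and Timp4 the slides lie on opposite sides of 0.

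The spread of single hearts and the shares of variance are given here as a description and were not tested. The median range over the 8 hearts was 0.77 on the log2 scale among the members and 0.73 over all features, so the members varied about as much as other genes. A median of 12.6% of a member's variance lay between the groups and 7.07% between the slides, beside 2.88% and 17.3% over all features. Noise alone places some variance in each share. Mmp9 had the largest group share at 32.5%, and Timp1 the largest slide share at 24.1%.

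Fibroblast markers gave no single picture of the hearts that were low for the first Timp2 probe and for Mmp14. The mean log2 signal of 10 fibroblast markers was 1.967, 2.181, 2.005 and 2.165 in dtg hearts 1 to 4, against 2.008, 2.004, 2.173 and 2.275 in control hearts 1 to 4. By this mean control 4, low for both probes, was the highest heart. The summed signal of the same markers was 117.0 to 189.0 in dtg hearts and 116.5 to 180.9 in control hearts, and it was lowest in control 4, dtg 4 and dtg 3. Dcn (decorin) alone made up 59.8% to 73.0% of that sum in dtg hearts and 56.3% to 75.2% in control hearts, so the sum mostly follows 1 gene. The part of fibroblast content in the Timp2 and Mmp14 values was not tested.

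**Figure D4:**
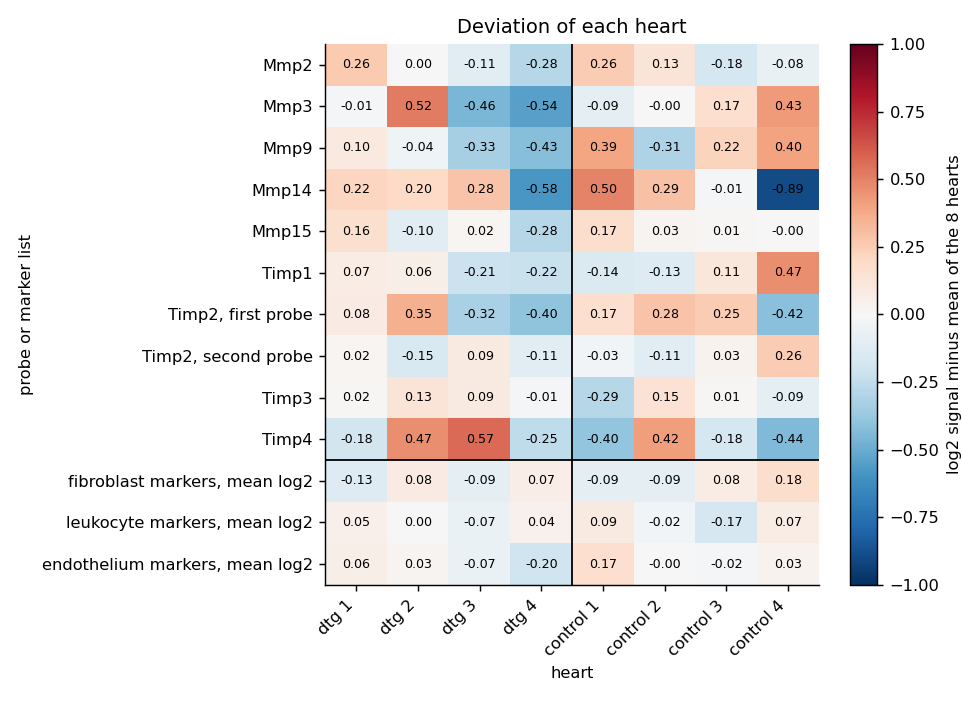
Colour and number give the log2 signal of each heart minus the mean of the 8 hearts, with hearts in columns (dtg left, control right) and probes in rows, above the mean log2 signal of 3 marker lists. Control 4 is low for Mmp14 (-0.89) and the first Timp2 probe (-0.42), and high for Timp1 (0.47) and fibroblast markers (0.18).

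Members known to bind each other, or to be joined by Timp2 (proMmp2 and Mmp14), were compared across the 8 hearts in 6 pairs. In 5 of them Mmp14, Timp2 or Timp4 split the hearts into 2 sets, at a gap above 0.4 of the range with at least 2 hearts on each side, and no pooled correlation is given for those. This limit on the gap was set after the data were seen, and Mmp14, with a gap of 0.411 of its range, lay just past it. Timp1 had a wider gap, 0.517 of its range, but only 1 heart (control 4) lay above it, so its pair was kept. For Timp1 and Mmp9, Pearson's r was 0.69 (two-sided exact permutation p = 0.0463, adjusted p = 0.153 over the 6 pairs) and Spearman's rho was 0.76 (exact permutation p = 0.0368, adjusted p = 0.221), so the pair did not pass. Without the 2 hearts farthest from the median of Timp1, r was 0.43 (exact permutation p = 0.344), so the relation did not pass without them, on the 6 hearts left. The call depended on the scaling, with r of 0.82 after quantile normalization (exact permutation, adjusted p = 0.049) and -0.063 with normexp as planned. Centred on the slide means it was 0.69, and 4 hearts of a slide are too few for a value of their own.

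By likeness over the 8 arrays, the genes nearest to the 3 members with the widest range were listed as a description, out of 14270 named genes, which share arrays, slide and scaling with the members. Plpp7 (r = 0.992), Tufm (r = 0.986) and Cspg4 (r = 0.983) were nearest to Mmp14. Rnf146 (r = 0.926), Pxdn (r = 0.926) and Derl1 (r = 0.916) were nearest to Mmp3, and Creld2 (r = 0.959), Zbtb16 (r = 0.946) and Lpin3 (r = 0.943) to Timp4. These r were picked as the highest among 14270 genes on 8 arrays, so their size is no evidence of a relation. Mmp14 and Timp4 also split the hearts into 2 sets, as described above, and their r can rest on that split.

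Other genes of the pathway were read from 5 lists. Of 18 further Mmp genes, 17 were on the array and only 6 passed the filter, and 11, among them Mmp7, Mmp8, Mmp10 and Mmp12, did not. Of the 6, 0 passed the adjusted threshold and 4 had higher means in dtg hearts (median difference 0.040). Mmp13, the main interstitial collagenase of rodents, had the smallest p among them. Its log2 signal was -4.46, -3.84, -4.13 and -3.90 in dtg hearts 1 to 4, against -4.32, -4.75, -4.63 and -4.94 in control hearts 1 to 4. Only dtg 1 lay within the control range. The difference was 0.58 (SE 0.18; unadjusted p = 0.0138, adjusted p = 1, limma) and positive within both slides, 0.36 and 0.80. The probe is dim, and the difference was 0.37 with quantile normalization, 0.22 with normexp without dark spots and -0.011 with normexp as planned. Mmp17, Mmp11 and Mmp23 differed by 0.09, -0.03 and 0.03, none past the threshold.

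Regulators outside the Timp family were measured for 16 of 21 listed genes, with 9 higher, 7 lower and 0 past the adjusted threshold. Serpine2, protease nexin-1, an inhibitor of thrombin and of plasminogen activators, was the one gene of the 5 lists whose groups did not overlap. Over all features the groups did not overlap for 0.518%, and Serpine2 is named here for the smallest p of its list. The log2 signal of Serpine2 was -1.57, -1.64, -1.49 and -1.79 in dtg hearts 1 to 4, against -1.31, -1.29, -1.36 and -1.15 in control hearts 1 to 4. Every dtg heart thus lay below every control heart. The difference of -0.34 (SE 0.11; unadjusted p = 0.0128, adjusted p = 1, limma) was -0.37 within slide 1 and -0.31 within slide 2, and lay between -0.39 and -0.27 over all 21 alternatives run. Thbs1, a matricellular protein, and Mcpt4, a mast cell chymase, differed by 0.15 and -0.16, neither past the threshold.

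Related proteases and substrates gave no call either. Of 22 Adam and Adamts genes, 19 were measured, with 9 higher, 10 lower and 0 past the adjusted threshold. Adam19 differed by -0.25 (SE 0.13) and the aggrecanase Adamts4 by -0.65 (SE 0.36), while Adamts12 and Adamts17 differed by 0.79 (SE 0.56) and 0.65 (SE 0.50). With normexp as planned the last 2 were -0.10 and -0.030, and Adamts12 was -0.24 within slide 1, so neither has a settled direction. Adamts12 was well above background on only 2 arrays of each group. Among 20 AP-1 and cytokine inducers 17 were measured, with 10 higher and 7 lower, and Stat3, Nfkb1, Tgfb2 and Ets2, the 4 with the smallest p, differed by 0.15, -0.20, 0.16 and 0.09, none past the threshold. Of 20 matrix substrates 19 were measured and 14 were lower (median difference -0.056), where 44.7% of all features were lower. Bgn (biglycan), Eln (elastin), Acan (aggrecan) and Lamb1 (a laminin chain) differed by -0.21, -0.31, 0.41 and -0.11, none past the threshold, and with normexp as planned Acan (-0.036) and Lamb1 (0.15) had the other sign.

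**Figure D5:**
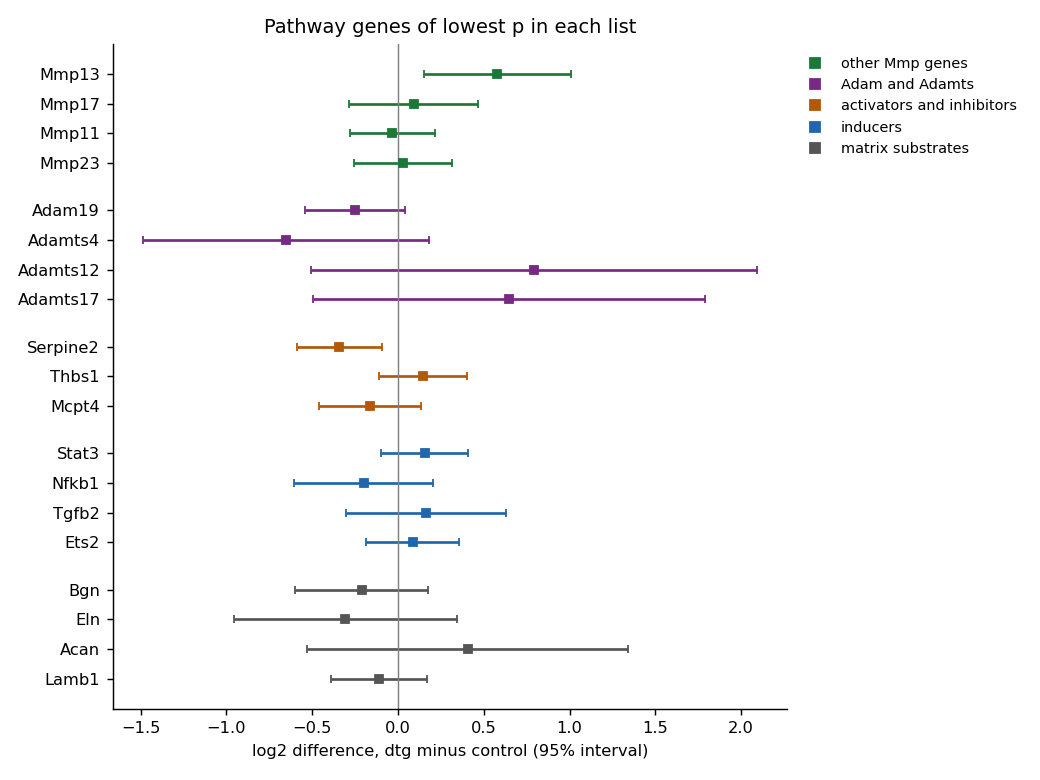
Squares give the log2 difference, dtg minus control, with its 95% interval on the x axis, for up to 4 genes of smallest p in each of 5 pathway lists, coloured by list. Intervals of Mmp13 (0.58) and Serpine2 (-0.34) leave out 0, without adjustment for the number of features tested.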

How the data were processed

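Scanner tables of the 1-colour arrays, deposited by the authors, give the processed signal of every spot as a linear intensity (Agilent Feature Extraction 10.7.3.1, per the submitters' processing notes). A deposited table of log2 values was also given, with no tool named. Set against the scanner values it was quantile normalized log2 processed signal centred per probe (matched column by column, with column medians between -0.0325 and 0.0323), and it served as an alternative. The array annotation names mm9, so coordinates are given for the RefSeq promoters only.

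After control and outlier spots were removed, log2 values of a probe's spots were averaged and scaled by subtracting each array's 75th percentile. Probes were named through RefSeq accessions (26363 of 39429 had a symbol). A probe was kept if well above background on at least 4 arrays, counted by at least 0.5 of its spots, and the brightest probe of a gene was used, giving 21412 features. Groups, as named in the sample titles, were compared with limma 3.58.1 in R 4.3.3, without covariates, on all 8 arrays, with Benjamini-Hochberg adjustment over all features. The median SE of a log2 difference was 0.18, a precision set by 8 arrays.

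Members and lists were chosen with earlier results of these data known. Named genes are all members, Igf1r, the 4 genes of each pathway list with the smallest p (limma), and the 3 genes most like each of the 3 members with the widest range. Alternatives were normexp with an offset of 50 on pixel medians (the mean signal was not used here), also without spots darker than their local background, quantile normalization, other filters, the mean of probes, the deposited log2 values, each slide alone and slide as a block, a block for replicate number, an intensity trend and leaving out each heart. Leaving out dtg 3, dtg 4 and control 4 together was added after seeing the data. Protein and probe sequences were not analysed here, and 1 gene that the naming rule takes is not reported here.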

Additional observations from a re-analysis of the deposited data

Results flagged for a closer look

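Of 22 groups of 4 hearts examined (11 probes, the 10 of the members and Igf1r, in 2 groups), 2 held a heart set apart from the other 3, judged by its gap to the nearest heart as a share of the group's range. Chance does this in about 1 in 20 groups. The Mmp14 signal of dtg 4 was -3.11, with a gap of 0.901 of the range of the dtg hearts. The first Timp2 probe read 3.56 in control 4, with a gap of 0.841 of the range of the control hearts. The mean log2 signal of 10 fibroblast markers was 2.17 in dtg 4 and 2.27 in control 4, and its part in these values was not tested.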

How the results depend on the processing

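No feature passed the adjusted threshold in any of 21 alternatives (lowest adjusted p 0.553, with 13 to 728 features at an unadjusted p of 0.05, limma). The difference of Mmp9, Mmp15 and Timp3 kept its sign in each alternative that gave a value, and Mmp9 had none under the filter on all 8 arrays. Outside the members, Serpine2, Adam19, Adamts4, Mcpt4, Thbs1, Stat3, Nfkb1, Ets2, Eln and Igf1r kept their sign too. Differences of the other members and of the other named list genes turned in at least 1 alternative, small and large, and the cause was not tested. With normexp as planned, they were 0.077 for Mmp2, -0.19 for Mmp14, 0.16 for Timp2, 0.12 for its second probe, -0.011 for Mmp13, -0.068 for Mmp17, 0.0051 for Mmp11, -0.00042 for Mmp23, -0.10 for Adamts12, -0.030 for Adamts17, -0.036 for Acan and 0.15 for Lamb1. Mmp14 was -0.013 with quantile normalization and -0.014 with the deposited values. Within slide 1 they were -0.58 for Mmp14, 0.061 for Timp1, -0.23 for Timp4, 0.024 for the second Timp2 probe, 0.032 for Mmp11, -0.24 for Adamts12, -0.0035 for Tgfb2 and 0.016 for Lamb1. Within slide 2 they were 0.071 for Mmp2 and 0.099 for Timp2. Without dtg 3, dtg 4 and control 4 (added after seeing the data, slide as a block), they were 0.12 for Mmp2, 0.17 for Mmp3, -0.013 for Mmp14, 0.096 for Timp1, 0.032 for Mmp11 and 0.020 for Bgn. Leaving out 1 heart at a time gave -0.16 to 0.019 for Mmp2, -0.23 to 0.26 for Mmp14, -0.0062 to 0.21 for Mmp17, -0.071 to 0.028 for Mmp11, -0.016 to 0.10 for Mmp23 and -0.0061 to 0.28 for Tgfb2. The correlation of Timp1 and Mmp9 was -0.063 with normexp as planned, 0.82 with quantile normalization (exact permutation, adjusted p = 0.049) and 0.82 with the deposited values (exact permutation, adjusted p = 0.0496). Deviations of hearts of the same replicate number correlated at 0.54, -0.54, 0.15 and 0.16 across genes for numbers 1 to 4, so that number 2 ran the other way and the numbers were not taken as pairs, and with a replicate block 0 features passed, 277 at an unadjusted p of 0.05. Values of dim probes such as those of Mmp9 and Mmp13 shifted with the background correction. Bright probes shifted too: with normexp as planned Timp3 went from 0.11 to 0.36 and Stat3 from 0.15 to 0.40.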

Other observations

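Other cell types of the heart, chosen here after their values were seen, gave no call past the adjusted threshold (limma). All 5 measured erythroid genes had higher means in dtg hearts (median difference 0.42), and their summed signal was 769.4 to 1020 in dtg hearts and 527.1 to 961.8 in control hearts. Of 8 smooth muscle and pericyte markers 6 had lower means in dtg hearts, and Acta2, smooth muscle actin, differed by -0.37 (SE 0.11; unadjusted p = 0.0084, adjusted p = 1, limma), with every dtg heart below every control heart. Of 8 endothelial markers 7 had lower means in dtg hearts, with a median difference of -0.10. So did 7 of 8 atrial markers (median difference -0.55) and 5 of 6 adipocyte markers (-0.18). Lower means were found for 4 of 8 cardiomyocyte and 5 of 10 leukocyte markers. Over all features, 55.3% had higher and 44.7% lower means in dtg hearts, and for 0.518% the groups did not overlap.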
